A study of Mus musculus with 8 samples.

Results

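The genes described here were 9 CXC chemokines (Cxcl1, Cxcl2, Cxcl5, Cxcl9, Cxcl10, Cxcl12, Cxcl13, Cxcl14 and Cxcl16) and fractalkine (Cx3cl1), together 10 of 15156 named genes with a usable probe. They were chosen by family: a gene was represented by the probe of its RefSeq transcript with the highest mean signal among those flagged above background on 4 or more of the 8 arrays. All 10 had such a probe, and none was lost to that filter. Cxcl9 and Cxcl12 had 2 such probes each, and the other members had 1.

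The labels name the ventricles of male C57BL\6 mice, 24 hours after surgery, as the source of the RNA. The paper describes homogenizing the excised heart and mentions no removal of the atria. In 4 mice the anterior interventricular artery was permanently ligated to cause myocardial infarction (MI), and 4 mice were sham-operated. In MI mice the chest and pericardium were opened; which of these steps the sham operation shared is not given in the sources used here, and unoperated hearts were not analysed here. The labels give no age, and all mice were of the same background without a stated mutation. Each mouse was measured on 1 single-colour array, and the RNA was a mixture of all cells of the tissue, so that fewer cells of a type and less RNA per cell cannot be told apart.

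Chemokines are small secreted proteins that guide leukocytes along concentration gradients through receptors coupled to G proteins. The CXC ligands that carry a glutamate-leucine-arginine motif, such as Cxcl1, Cxcl2 and Cxcl5, attract neutrophils through Cxcr2. Cxcl9 and Cxcl10 are induced by interferons and attract activated T cells and NK cells through Cxcr3. Cxcl12, Cxcl13, Cxcl14, Cxcl16 and fractalkine are made in many resting tissues, and Cxcl16 and fractalkine are also displayed on cells through a membrane-anchored stalk. In the infarcted heart, neutrophils enter within hours and monocytes follow.

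Promoter sequences are shown for the members with the largest differences and for Cxcl3, a close paralog, since they carry letters known from binding sites of inflammatory transcription factors. The windows, from RefSeq on build GRCm38.p6, end at the base before the transcription start and are written 5′ to 3′ on the strand of the gene. Capitals mark matches, on either strand, to GGGNNTTTCC (a form of the NF-kappaB site), GAAANNGAAA (a form of the interferon-stimulated response element) and TGANTCA (the AP-1 site). No matches overlapped.
Cxcl1, chr5:90891095-90891244, plus strand: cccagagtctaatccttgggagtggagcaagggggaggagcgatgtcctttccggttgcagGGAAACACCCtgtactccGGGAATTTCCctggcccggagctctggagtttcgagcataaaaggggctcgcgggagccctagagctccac
Cxcl2, chr5:90903749-90903898, plus strand: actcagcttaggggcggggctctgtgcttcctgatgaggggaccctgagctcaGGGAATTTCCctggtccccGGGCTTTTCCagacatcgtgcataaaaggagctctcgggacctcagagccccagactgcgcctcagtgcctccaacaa
Cxcl3, chr5:90785951-90786100, plus strand: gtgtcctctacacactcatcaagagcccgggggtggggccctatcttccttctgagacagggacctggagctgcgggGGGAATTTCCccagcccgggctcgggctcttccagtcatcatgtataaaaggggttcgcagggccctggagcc
Cxcl10, chr5:92348890-92349139, minus strand: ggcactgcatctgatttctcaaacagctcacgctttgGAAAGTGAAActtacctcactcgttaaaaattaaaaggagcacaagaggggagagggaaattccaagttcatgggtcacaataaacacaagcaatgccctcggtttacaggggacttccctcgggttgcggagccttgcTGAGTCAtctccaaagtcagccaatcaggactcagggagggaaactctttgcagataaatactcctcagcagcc

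Promoter windows were found for 8 of the 10 members, not for Cxcl5 and Cxcl16. In the 250 bases before the start, the NF-kappaB letters occurred in Cxcl1, with matches beginning 89 and 71 bases before the start, and in Cxcl2, with matches 97 and 78 bases before it. Cxcl3 held a match 73 bases before its start. Over all 32851 windows of the same length, 1.41% held these letters. The Cxcl10 window holds gggaaattcc and ggggacttcc, which resemble these letters without matching them. Other forms of the NF-kappaB site were not searched, so a window without a match is not shown to lack such a site. The interferon response letters occurred in Cxcl10, 213 bases before the start, and in Cxcl14, 172 bases before it, against 2.98% of all windows. The AP-1 letters occurred in Cxcl10, 74 bases before the start, against 6.75% of all windows. These matches describe the sequence and were not measured as bound sites.

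All mice shared 1 slide, whose 2 rows each held 2 mice of either group, and 58.6% to 66.4% of the spots per array exceeded background clearly. Precision is limited by the number of arrays. Markers of cardiomyocytes were bright in every mouse. Of 9 in limma 0 were called, beside 7.61% of all probes, and 1 had an unadjusted p under 0.05. The atrial genes Myl7 and Sln, however, varied widely within the tissue labelled as ventricles. The sham library of replicate 4 stood apart, with Myl7 at 8.52 against 12.94 to 14.54 in the other mice, all as log2 signals. All levels below are log2 signals normalized with spike-in RNA, and a difference of 1 is a 2-fold difference. A probe was called when its adjusted p in limma was under 0.05. Levels are compared between mice for the same probe and not between genes.

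Expression of the neutrophil-attracting ligands Cxcl1, Cxcl2 and Cxcl5 and of the interferon-inducible ligands Cxcl9 and Cxcl10 rose in MI mice, by 1.83-fold for Cxcl9 and 17.0-fold for Cxcl10. Cxcl12, Cxcl13, Cxcl14, Cxcl16 and Cx3cl1 were not called. Thus 5 of the 10 members were called, all of them higher, where 6.3% of the 34038 retained probes were called higher and 1.31% were called lower. A fold change over 2 was found in 4 of the called members, against 3.07% of all probes in that direction. The median difference over the members was 0.87, beside 0.12 over all retained probes. With other scalings that median over all probes lay between -0.03 and 0.11, so that each difference stands against a median that itself depends on the scale.

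**Figure D1:**
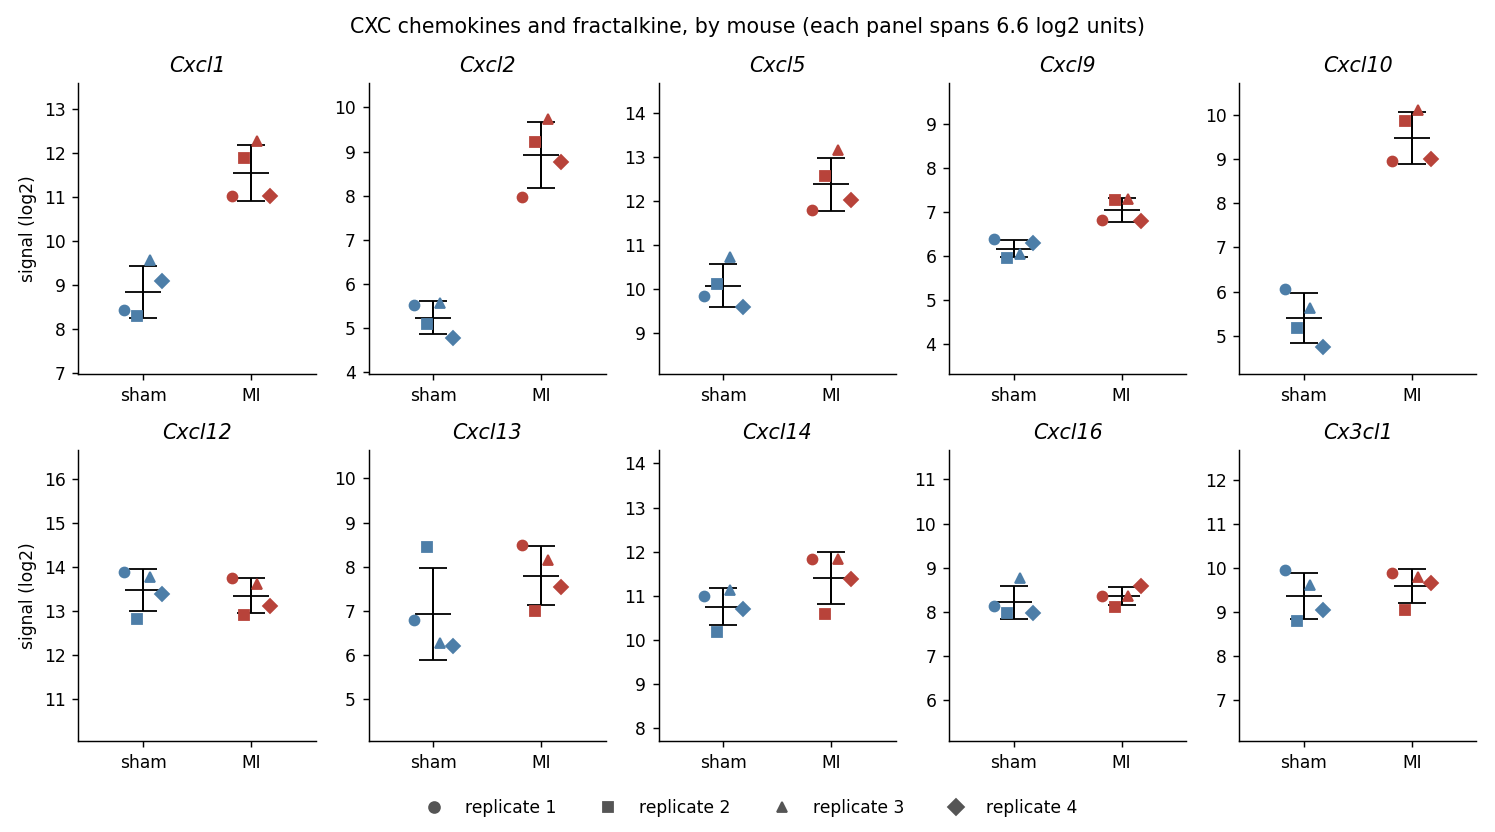
Normalized log2 signal (vertical axis) of the 10 members in each sham-operated mouse (blue) and MI mouse (red). Horizontal bars are the group mean and the error bars are 1 SD, with n = 4 per group. In Cxcl1, Cxcl2, Cxcl5, Cxcl9 and Cxcl10 all MI mice were above all sham-operated mice, and in the other 5 members the groups overlapped.

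Cxcl10 attracts activated T cells and had the largest difference among the members on the scale used here. Its log2 level was 8.96, 9.86, 10.13 and 9.0 in MI replicates 1 to 4. It was 6.06, 5.18, 5.63 and 4.73 in sham replicates 1 to 4, and the spot of sham replicate 4 was not well above background. The lowest MI mouse lay 2.90 above the highest sham-operated mouse. The means were 9.49 ± 0.60 (SD, n = 4) and 5.40 ± 0.57 (SD, n = 4), a difference of 4.09 ± 0.28 (SE), with an adjusted p of 1.04e-10 in limma. By size of the difference, Cxcl10 held rank 10 of the 34038 probes.

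Cxcl2, a neutrophil attractant also called MIP-2, followed with rank 20 on the same scale. The log2 levels were 7.97, 9.21, 9.74 and 8.77 in the MI replicates and 5.53, 5.08, 5.57 and 4.77 in the sham replicates, in order. Sham levels lay near the detection limit, and the lowest MI mouse lay 2.40 above the highest sham-operated mouse. The difference was 3.68 ± 0.28 (SE), or 12.8-fold, with an adjusted p of 8.37e-10 in limma. For dim probes such as those of Cxcl2 and Cxcl10 the size depended on the additive constant of the scale. With constants fitted here to the spike-in spots the differences fell to 1.57 and 1.94, and both were still called. The order of the members then turned, since Cxcl1 (2.28) and Cxcl5 (2.12) exceeded both.

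Cxcl1, known as KC in the mouse, shares Cxcr2 with Cxcl2. On the log2 scale it was at 11.02, 11.87, 12.26 and 11.02 in the MI replicates and 8.43, 8.30, 9.56 and 9.08 in the sham replicates. Sham replicate 3 was the highest of its group and still lay below every MI mouse. The difference was 2.70 ± 0.29 (SE), or 6.50-fold, with an adjusted p of 1.83e-07 in limma.

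Cxcl5, called LIX in the mouse and made by epithelial and stromal cells, showed 11.79, 12.55, 13.14 and 12.03 in the MI replicates and 9.85, 10.11, 10.73 and 9.60 in the sham replicates, as log2 levels. As for Cxcl1, sham replicate 3 was the highest sham-operated mouse. The difference was 2.31 ± 0.27 (SE), or 4.94-fold, with an adjusted p of 1.04e-06 in limma.

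Cxcl9, the other Cxcr3 ligand measured, differed less between the groups than Cxcl10. The mice had log2 levels of 6.81, 7.28, 7.29 and 6.79 in the MI replicates and 6.38, 5.95, 6.05 and 6.29 in the sham replicates. The groups did not overlap, with 0.41 between the lowest MI mouse and the highest sham-operated mouse. The difference was 0.88 ± 0.21 (SE), with an adjusted p of 0.00835 in limma. A further probe of the same transcript gave a difference of 0.83, with an adjusted p of 0.00992. The call was lost with an unmoderated test for each probe (adjusted p = 0.0717), without the filter on detection (0.0805) and with the spike-in fit made here (0.0907).

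For these 5 members the exact two-sided permutation test gave p = 0.0286, the smallest that the 70 arrangements of 4 against 4 mice allow. Groups that did not overlap, with MI higher, were found in these 5 members and in 8.46% of all retained probes. Within each row of the slide the direction was the same: the differences in the first and the second row were 3.08 and 2.32 for Cxcl1, 3.28 and 4.08 for Cxcl2, 2.19 and 2.42 for Cxcl5, 0.88 and 0.87 for Cxcl9, and 3.79 and 4.38 for Cxcl10.

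**Figure D2:**
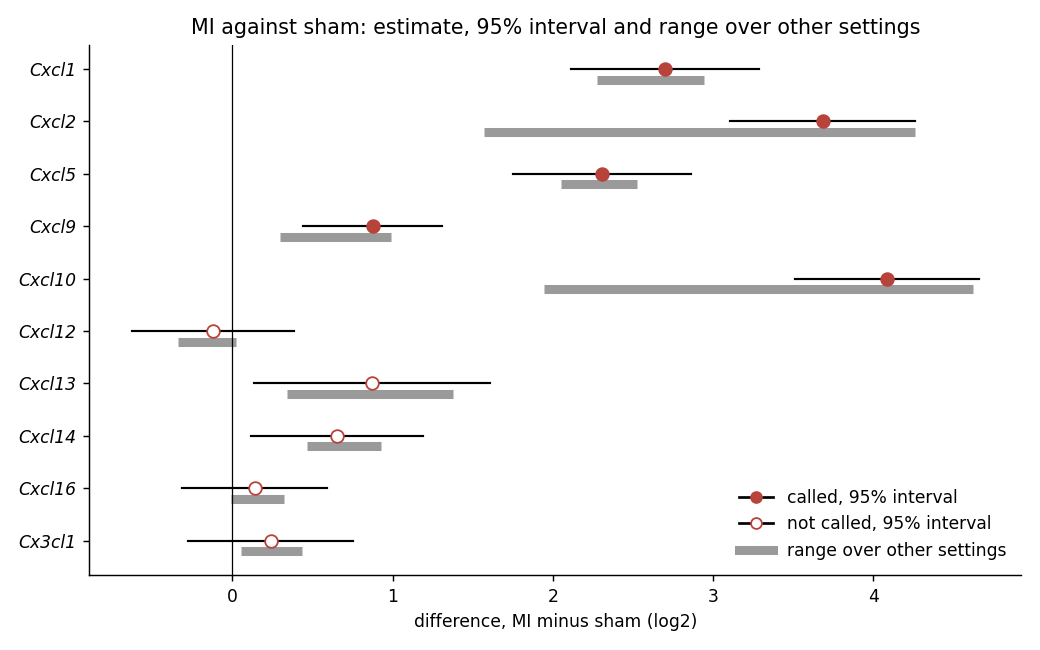
Difference in log2 signal between MI and sham-operated mice (horizontal axis) for each member, with its 95% interval (black line, n = 4 per group) and the range over the other processing settings and leave-one-out fits (grey bar). Filled points passed the adjusted p of 0.05. The grey bars of Cxcl2 and Cxcl10 reach down to 1.57 and 1.94, and the intervals of Cxcl12, Cxcl16 and Cx3cl1 include 0.

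The MI mice ranked alike in the risen members. Replicate 3 had the highest level and replicate 2 the next in Cxcl1, Cxcl2, Cxcl5, Cxcl9 and Cxcl10, which made 5 of the 5 called members. These mice were the highest pair in 16.4% of the probes called higher and in 1.89% of all retained probes. With each array scaled to its 75th percentile, which moved replicate 2 up, the pair led in all 5 of these members and in 46.8% of the probes called higher. Replicate 2 then stood above replicate 3 in each of these members, so the order within the pair depended on the scale. In each of the 5 members that were not called, MI replicate 2 was the lowest MI mouse, as it was in 76.5% of all retained probes. With the 75th percentile scaling this held for 3 of these 5 members and for 20.8% of all retained probes.

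Cxcl12, which holds hematopoietic and progenitor cells in their niches through Cxcr4, was not called. Measured log2 levels were 13.74, 12.91, 13.62 and 13.11 in the MI replicates and 13.88, 12.83, 13.77 and 13.39 in the sham replicates. The groups overlapped almost entirely. The difference was -0.12, with a 95% interval from -0.63 to 0.38 and an adjusted p of 0.837 in limma. The probe of another transcript of the gene gave a difference of -0.02, with an adjusted p of 0.976. The sign of the first value turned when MI replicate 2 or sham replicate 1 was left out (0.021 and 0.014).

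Fractalkine (Cx3cl1), a membrane-bound adhesion molecule and, once shed, an attractant of monocytes, was 9.87, 9.04, 9.79 and 9.65 in the MI replicates. It was 9.95, 8.80, 9.60 and 9.05 in the sham replicates. The difference of 0.24 had a 95% interval from -0.27 to 0.75 and an adjusted p of 0.66 in limma. Cxcl16, a scavenger receptor for oxidized lipids in its membrane form, was 8.36, 8.11, 8.36 and 8.59 in the MI replicates and 8.14, 7.97, 8.77 and 7.98 in the sham replicates. The MI mice lay within the range of the sham-operated mice. The difference of 0.14 had a 95% interval from -0.31 to 0.59 and an adjusted p of 0.788 in limma. These intervals exclude a 2-fold difference for Cxcl12, Cxcl16 and Cx3cl1 on this scale, and do not show that the levels were equal.

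Cxcl14, a chemokine of epithelia and fibroblasts, was 11.83, 10.59, 11.83 and 11.39 in the MI replicates and 11.005, 10.19, 11.12 and 10.70 in the sham replicates. In each group replicate 2 was the lowest, and MI replicate 2 lay below 3 of the 4 sham-operated mice. The difference of 0.65 ± 0.26 (SE) had an adjusted p of 0.141 in limma and an exact p of 0.143. The call differed between scalings of the arrays. With the 75th percentile scaling, the SD within groups fell from 0.58 to 0.29 (MI) and from 0.42 to 0.17 (sham), and Cxcl14 was called higher (difference 0.54, adjusted p = 0.0495). Cxcl14 was also called when MI replicate 2 was left out (difference 0.93, adjusted p = 0.022).

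Cxcl13, which draws B cells into lymphoid follicles through Cxcr5, was the member with the widest spread among sham-operated mice. Its log2 level was 8.50, 6.99, 8.15 and 7.54 in the MI replicates and 6.78, 8.44, 6.27 and 6.20 in the sham replicates. Sham replicate 2 stood at the level of the highest MI mouse, and the other sham-operated mice lay below every MI mouse. The difference of 0.87 ± 0.36 (SE) had an adjusted p of 0.154 in limma and an exact p of 0.229. It was 0.13 in the first row of the slide, which held sham replicate 2, and 1.61 in the second. Without sham replicate 2 the difference was 1.38 and was called (adjusted p = 0.00061).

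The mice with the most Cxcl13 were also those with the most RNA of atrial muscle genes, a list chosen after these values were seen. Myl7, the atrial myosin light chain, was 14.40, 13.18, 14.14 and 12.96 in the MI replicates and 12.94, 14.54, 13.27 and 8.52 in the sham replicates. MI replicate 1, MI replicate 3 and sham replicate 2 were the highest mice for both Cxcl13 and Myl7, and sham replicate 4 was the lowest for both. Among the other mice the orders differed. Sham replicate 1 exceeded sham replicate 3, and MI replicate 4 exceeded MI replicate 2, in Cxcl13 but not in Myl7. Sham replicates 3 and 4 were close in Cxcl13 (6.27 and 6.20) and far apart in Myl7 (13.27 and 8.52). Sln, the inhibitor of the calcium pump in atrial muscle, reached 15.80 in sham replicate 2 and 8.79 in sham replicate 4. Of the 9 atrial genes, 1 was called, beside 7.61% of all probes: Nppa, which is also induced in stressed ventricles. The log2 of the summed signal of the 9 genes was 18.09 to 18.92 for MI and 15.25 to 18.76 for sham. The part of atrial tissue in the Cxcl13 levels was not tested.

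**Figure D3:**
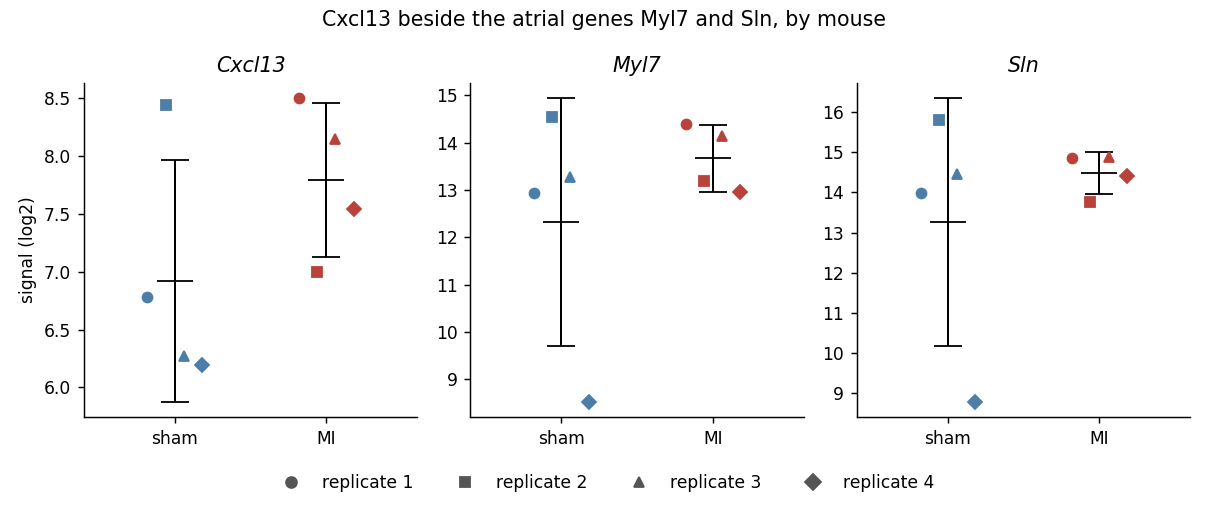
Normalized log2 signal (vertical axis) of Cxcl13 and of the atrial genes Myl7 and Sln in each mouse, with sham-operated mice in blue, MI mice in red, and the group mean and SD (n = 4 per group) as bars. Each panel has its own vertical scale. Sham replicate 2 is the highest sham-operated mouse and sham replicate 4 the lowest in all 3 genes.

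The risen members lay in 2 gene clusters of chromosome 5. In the order of the RefSeq annotation, Cxcl5, Ppbp, Pf4, Cxcl3, Cxcl15, Cxcl1 and Cxcl2 follow each other, and Cxcl9 and Cxcl10 lie further along with Art3 between them. Cxcl13 is also on chromosome 5, outside both clusters and apart from them. Of the 9 neighbouring or interspersed protein-coding genes that encode no CXC ligand, 7 were tested and 0 were called in limma, 0 had an unadjusted p under 0.05, and 0 were called by significance analysis of microarrays. With 7.61% of all probes called, a count of 0 of 7 is near the background and says nothing particular of these genes. These neighbours were chosen after the values of the ligands were seen. Art3, an ADP-ribosyltransferase gene between Cxcl9 and Cxcl10, differed by 0.09 (95% interval from -0.40 to 0.59). Mthfd2l, which follows Cxcl2, differed by 0.10 (95% interval from -0.34 to 0.53).

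Cxcl3, the ligand between Pf4 and Cxcl15, is no member of the chosen set but showed a difference of the same size as Cxcl10. Its log2 level was 10.43, 11.90, 11.51 and 11.87 in the MI replicates and 7.62, 6.25, 8.03 and 7.35 in the sham replicates. The difference was 4.12 ± 0.32 (SE), or 17.4-fold, with an adjusted p of 8.47e-10 in limma. Cxcl1, Cxcl2 and Cxcl3 are paralogs of similar sequence, and hybridization of one transcript to the probe of another was not tested.

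The platelet ligands of the same cluster moved less. Ppbp, the precursor of the neutrophil attractant NAP-2, rose by 1.08 ± 0.23 (SE), with an adjusted p of 0.00261 in limma. Pf4, platelet factor 4, differed by 0.53 ± 0.21 (SE) and missed the call (adjusted p = 0.131), although its groups did not overlap and significance analysis of microarrays called it (q = 0.0215). Among 7 platelet markers, 1 was called, Itga2b, beside 7.61% of all probes, and the median difference was 0.26. The groups of Itga2b overlapped, and significance analysis of microarrays did not call it (q = 0.0542). Cxcl15 was not well above background on any array, Cxcl17 was so on 2 arrays, and Cxcl11, annotated as a transcribed pseudogene, was matched to no probe.

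**Figure D4:**
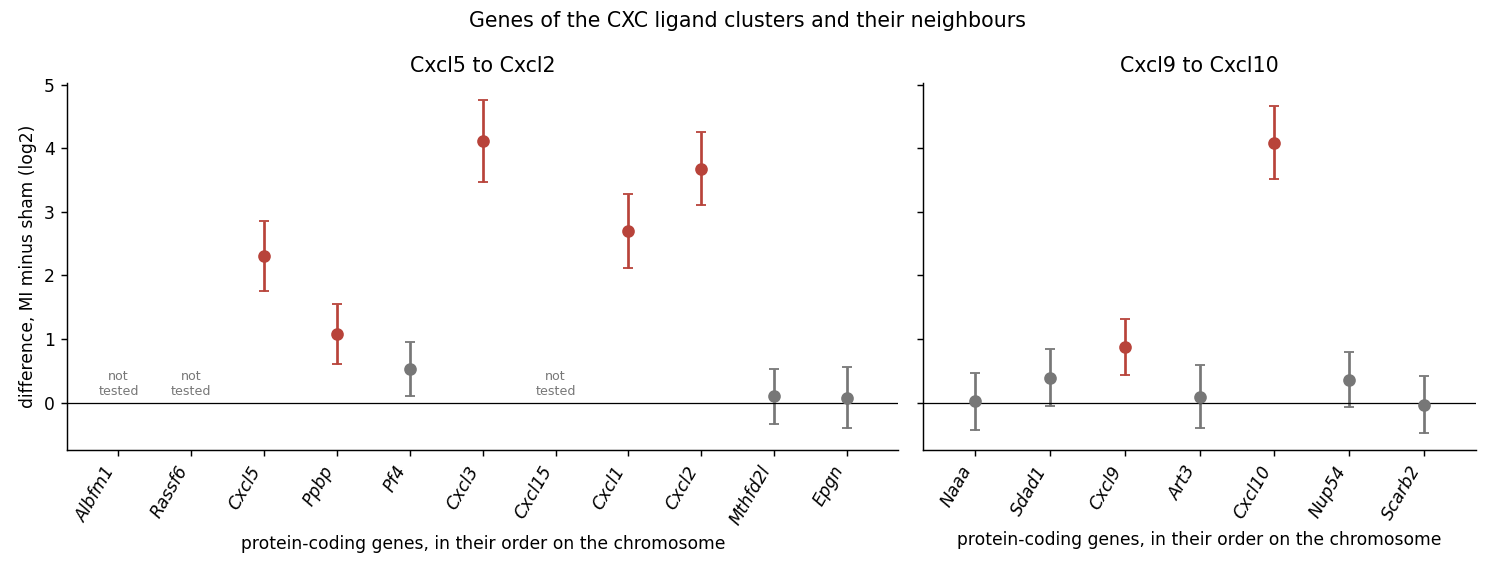
Difference in log2 signal between MI and sham-operated mice (vertical axis, with 95% intervals, n = 4 per group) for protein-coding genes in their order along chromosome 5, without distances, for the stretch from Cxcl5 to Cxcl2 (left) and from Cxcl9 to Cxcl10 (right) with flanking genes on each side. Red points were called and grey points were not, and genes without a retained probe are written as not tested. The tested CXC ligand genes had higher estimates than the tested neighbours, whose intervals all include 0. The intervals of some ligands, such as Pf4 (0.10 to 0.95) and Cxcl9 (0.44 to 1.31), overlap that of the neighbour Sdad1 (-0.05 to 0.83).

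The receptors of the risen neutrophil attractants rose as well. Cxcr2, which marks neutrophils, was 8.84, 8.998, 9.40 and 8.60 in the MI replicates and 6.04, 5.29, 5.52 and 5.76 in the sham replicates. The difference was 3.31 ± 0.22 (SE), or 9.90-fold, with an adjusted p of 9.57e-11 in limma. Cxcr1, a further neutrophil receptor, differed by 1.40 ± 0.22 (SE), with an adjusted p of 6.61e-05, and was well above background on 4 MI arrays and 1 sham array. It thus met the filter on detection through the MI mice alone, and the size of its difference rests on sham levels near background. Ackr1, an atypical receptor of venules and red cells that binds many inflammatory chemokines, rose by 0.83 ± 0.23 (SE), with an adjusted p of 0.0227.

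For Cxcr3, Cxcr6 and Cxcr4 the call of the receptor differed from that of its ligand. Cxcr3, which binds Cxcl9 and Cxcl10, was close to the detection limit, being well above background on 3 arrays of each group. It differed by -0.14 ± 0.26 (SE), with an adjusted p of 0.828 in limma, while both of its ligands rose. Conversely, Cxcr6, the receptor of Cxcl16 on T cells and NKT cells, was 8.45, 8.84, 9.66 and 9.99 in the MI replicates and 7.30, 7.02, 7.37 and 7.13 in the sham replicates. It rose by 2.03 ± 0.26 (SE), or 4.08-fold, with an adjusted p of 4.92e-06, while the difference of its ligand was 0.14.

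Cxcr4, the receptor of Cxcl12 on leukocytes, rose by 1.18 ± 0.22 (SE), with an adjusted p of 0.000531 in limma. Ackr3, the scavenging receptor of Cxcl12, differed by -0.32 ± 0.22 (SE), with an adjusted p of 0.478. Cx3cr1, the fractalkine receptor of monocytes and macrophages, differed by -0.64 ± 0.27 (SE), with an adjusted p of 0.167. Its lowest mouse was MI replicate 2 at 6.10, and MI replicate 4 at 7.76 was its highest. Cxcr5, the receptor of Cxcl13, was well above background on 3 MI arrays and on no sham array, and it was not tested in limma. Its MI mean, which includes an array not well above background, was 1.62-fold above the limit set for the sham arrays. This is no lower bound for each MI mouse. The groups of Cxcr5 overlapped, with MI replicate 3 at 4.34 below sham replicate 2 at 4.41, and the exact p was 0.0571. In all, 5 of 8 receptors tested were called higher, Cxcr1 included, beside 6.3% of all probes called higher and 7.61% called in either direction, and of the other 3 Cx3cr1 had an unadjusted p under 0.05.

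**Figure D5:**
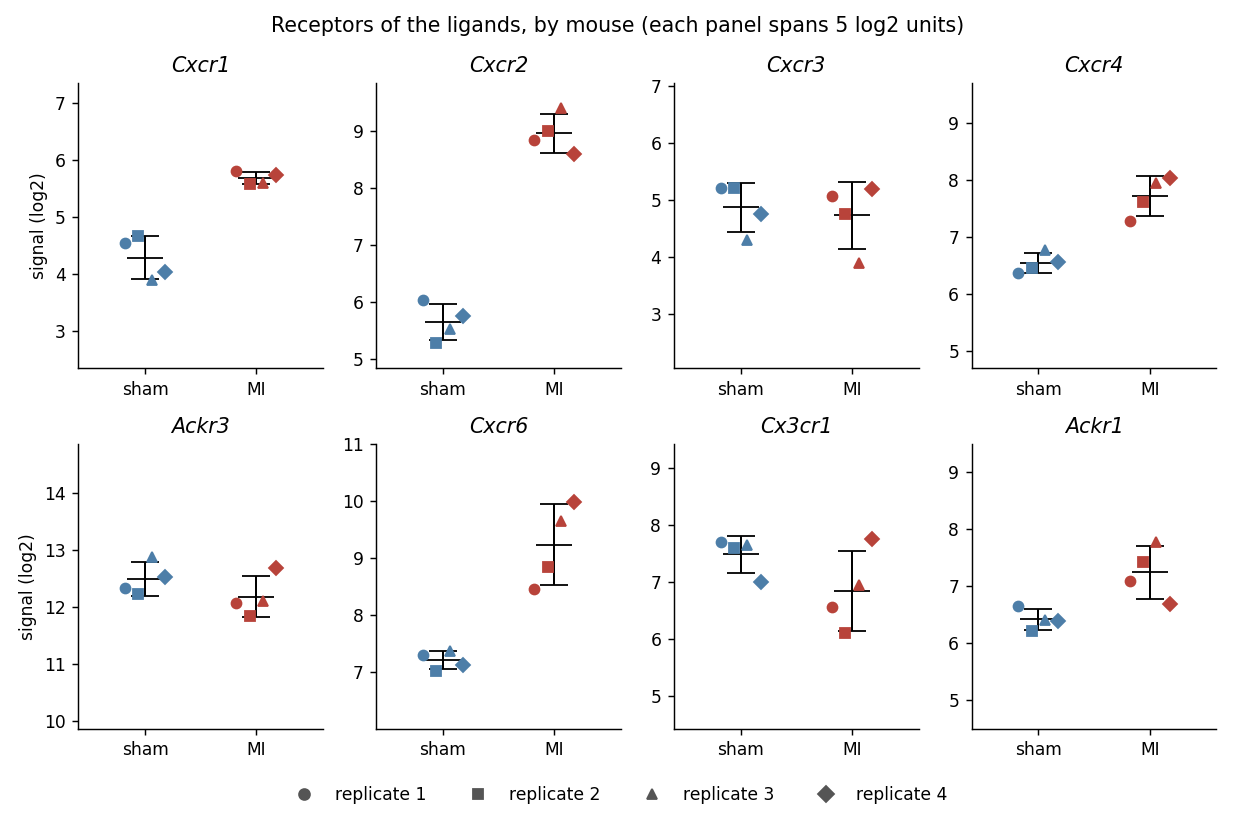
Normalized log2 signal (vertical axis) of 8 receptors in each sham-operated mouse (blue) and MI mouse (red), with the group mean and SD as bars (n = 4 per group). In Cxcr1, Cxcr2, Cxcr4, Cxcr6 and Ackr1 all MI mice were above all sham-operated mice, and in Cxcr3, Ackr3 and Cx3cr1 the groups overlapped.

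Markers of neutrophils, which make Cxcl2 and carry Cxcr2, were in part higher in MI mice. Of 12 neutrophil markers on the array, 7 were called higher, beside 6.3% of all probes, and 5 were not called. The 7 include Cxcr2 itself, given above, and Mmp8, which also stands among the processing genes below. The log2 of the summed signal of the 12 markers was 17.95 to 18.51 for MI and 16.25 to 16.94 for sham. S100a9, the brightest, had mean log2 levels of 17.13 (MI) and 14.35 (sham), and S100a8, its partner, had 15.86 and 12.85. Both were called, whereas Csf3r with 15.42 and 15.34 and Lcn2 with 15.64 and 14.995 were not. No neutrophil marker was below background on all 8 arrays, but Ngp was so on all 4 sham arrays and met the filter through the MI mice alone. The part of neutrophil number in the ligand and receptor levels was not tested.

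Cytokines that induce the neutrophil-attracting ligands were measured as well. Of 8 listed, 7 were tested, of which 5 rose, beside 6.3% of all probes called higher. Il6 rose by 3.35 ± 0.36 (SE) and Il1b by 3.22 ± 0.37 (SE), with adjusted p of 2.3e-07 and 6.81e-07 in limma. Tnf rose by 1.63 ± 0.24 (SE) and Csf3, the neutrophil growth factor G-CSF, by 1.66 ± 0.29 (SE), with adjusted p of 4.06e-05 and 0.000248. Csf2, the growth factor GM-CSF, was not well above background on any sham array and was at least 6.57-fold higher in MI mice. Csf3 was well above background on 4 MI arrays and 1 sham array. Csf2 and Csf3 thus met the filter on detection through the MI mice alone, and both are among the 5. Il33 (0.63) and Il17a (0.02) were not called, and Il1a was not well above background on any array. MI replicates 2 and 3 were the highest mice for Il6, Il1b, Tnf, Csf2 and Csf3, as for the called members. The order was not particular to these cytokines. The same pair was highest in Ackr1 and in the called neutrophil markers S100a8, S100a9, Mmp8, Retnlg, Cxcr2 and Ngp. Ltf, the remaining called neutrophil marker, did not show it, and neither did Cxcl3 or Ppbp. MI replicates 2 and 3 were the highest pair in 16.4% of the probes called higher.

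Beside 6.3% of all probes called higher (median difference 0.12), 7 of 12 regulators and feedback genes of NF-kappaB rose, with a median of 0.80. The largest differences were those of Nfkbie (1.34 ± 0.23, SE), an inhibitor that holds NF-kappaB in the cytoplasm, and Tnfaip3 (1.26 ± 0.24, SE), a ubiquitin-editing brake on the pathway. The smallest among those called were those of Rel (0.79 ± 0.23, SE), a subunit, and Nfkbiz (0.81 ± 0.22, SE), a nuclear co-regulator. Rel was well above background on 4 MI arrays and 1 sham array. It thus met the filter on detection through the MI mice alone, and is among the 7. The subunits Nfkb1 and Rela were not called, with differences of 0.78 and 0.36.

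Of 12 interferon genes, 10 were tested, and 3 rose, with a median difference of 0.33. Over all retained probes 6.3% were called higher and the median difference was 0.12. The risen interferon genes were Irf7 (1.33 ± 0.23, SE), Irf1 (0.90 ± 0.25, SE) and Irf9 (0.73 ± 0.22, SE), transcription factors of the interferon response. Significance analysis of microarrays also called Stat2 (0.55, q = 0.0149), which limma did not (adjusted p = 0.11). Ifng and Ifnb1, the interferons on the list, were not well above background on any array. T and NK cell markers, the cells that carry Cxcr3, gave 3 called higher of 5 tested, beside 6.3% of all probes. The log2 of their summed signal was 12.32 to 13.18 for MI and 12.24 to 13.29 for sham. Cd3d, a chain of the T cell receptor complex, rose by 0.90, whereas Cd3e differed by -0.12. Klrb1c, an NK cell marker, was not well above background on any array.

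Genes that cleave or present chemokines were the last group. Of 12 tested, 5 rose, beside 6.3% of all probes called higher. Mmp8 and Mmp9, neutrophil proteases that trim CXC ligands, rose by 2.82 ± 0.24 (SE) and 2.47 ± 0.23 (SE), with adjusted p of 6.04e-09 and 2.01e-08 in limma. Sdc4 and Sdc1, syndecans whose heparan sulfate chains hold chemokines at the cell surface, rose by 1.00 ± 0.22 (SE) and 0.86 ± 0.25 (SE), with adjusted p of 0.00342 and 0.029. Adam10 and Adam17, the sheddases of fractalkine and Cxcl16, differed by -0.09 and -0.05 and were not called. Dpp4, which inactivates Cxcl10 and Cxcl12, differed by -0.42, with an adjusted p of 0.311. In the lists of ligands, receptors, cytokines, regulators, processing genes and neutrophil markers, 0 genes were called lower in limma or by significance analysis of microarrays. In limma 1.31% of all probes were called lower, so that 0 is near the background. Cxcr2 and Mmp8 each stand in more than 1 of these lists. At an unadjusted p under 0.05 in limma, 1 gene, Cx3cr1, was lower.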

How the data were processed

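RNA labelled as ventricular was measured on 8 arrays, 4 per group, and the labels gave the groups. Per the file headers, Feature Extraction 11.0.1.1 made the intensities that were deposited, subtracting local background and spatial trends, and flags record which spots were well above background, saturated or outliers. The authors' deposited log2 values were made with limma and vsn from spike-in spots, without spots at background. From these values and the scanner signals, the scale and constant that the authors had used for each array were recovered (constants from 3.16 to 19.6), with a misfit of at most 5.02e-09. The same scale and constant were applied here to all processed signals, so that dim spots kept a value. After outlier spots were dropped and replicate spots averaged, 34038 of 55681 probes exceeded background on 4 or more arrays and were kept. Gene symbols came from RefSeq (GRCm38.p6) through the transcript of each probe.

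Groups were compared in limma 3.58.1 (R 4.3.3) without covariates, with Benjamini-Hochberg adjustment over all retained probes. The moderation added 19.6 degrees of freedom to each probe. On values simulated for 33865 probes with 4 against 4 mice, 37% of the probes changed 2-fold and 95% of those changed 4-fold were recovered, with 9 false calls. The noise was drawn independently for each probe and mouse. Shifts shared by a whole array were not simulated, so the false calls do not cover them. For single values, group means were also compared by exact permutation, two-sided. Python 3.11.15, numpy 2.4.6, pandas 2.3.3 and matplotlib 3.10.9 were used for the rest. A level given as "at least" N-fold sets the mean of the brighter group against the mean, over the dimmer arrays, of the higher of the probe's own value and the lowest value well above background. The labels number the mice without saying that a number is shared between groups. They do not say that mice were independent litters, so that p-values measure the spread between these mice.

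The members and lists were chosen with earlier results of these data known, and the atrial list, the neighbouring genes and the motifs after their values were seen. Named were all members, receptors and other CXC ligands, the called genes with the largest and smallest differences of each further list, and markers that were brightest or at background. Other genes were named after their values were seen. The alternatives were other scalings (own vsn fit, 75th percentile, spike-in shift, quantile, normexp with an offset of 50), the authors' values, other filters, significance analysis of microarrays, an unmoderated test, blocks, other probes and each mouse left out. A limma fit with an intensity trend and robust prior was chosen after seeing the data.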

Additional observations from a re-analysis of the deposited data

How the results depend on the processing

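Cxcl1, Cxcl2, Cxcl5 and Cxcl10 were called higher under every alternative that gave them a value, with differences between 2.28 and 2.94, 1.57 and 4.26, 2.05 and 2.53, and 1.94 and 4.62. Cxcl10 had no value where detection on all 8 arrays was required. With the unmoderated test the adjusted p was 0.0399 for Cxcl1, 0.0147 for Cxcl2, 0.0476 for Cxcl5 and 0.0107 for Cxcl10. The calls of Cxcl1 and Cxcl5 were then close to the threshold. The number of members called was between 4 and 6. The number of probes called, 2590 as reported, was 1271 with the spike-in fit made here, 5947 with the 75th percentile, 6153 with quantile normalization, 7110 with normexp, 990 without the filter on detection, 749 with the unmoderated test and between 1883 and 3213 with a mouse left out. Of the called probes 82.8% were higher, against 51.4% with the 75th percentile, 50.4% with quantile normalization and 46.9% with normexp. Cxcl9 was not called with the spike-in fit (0.29), without the filter (0.88) and with the unmoderated test (0.88). Cxcl14 was called with the 75th percentile (0.54), quantile normalization (0.58) and normexp (0.54), and ranged from 0.46 to 0.93 with a mouse left out. Cxcl13 ranged from 0.63 to 1.38 and Cxcl12 from -0.34 to 0.021 with a mouse left out, and Cxcl16 was -0.012 with normexp, not called. With the replicate number as a block 4895 probes were called and Cxcl14 was called (0.65), and the block changed no other member's call. The deviations of mice with the same number correlated at 0.24, 0.29, 0.14 and 0.011, so the numbers were not taken to pair the mice, and MI replicates 3 and 4 correlated best with another number. With the intensity trend and robust prior 3421 probes and the same number of members, 5, were called. The cause of these changes was not tested. Probes near background, such as those of Cxcl2 and Cxcl10 in sham-operated mice, limit the size of a difference more than its direction.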

Other observations

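Markers of the resident cells of the heart were for the most part not called. Of 9 endothelial markers, 8 fibroblast markers, 9 cardiomyocyte markers, 6 mesothelial markers, 6 adipocyte markers tested and 3 erythroid markers tested, 0 were called in limma and 0 by significance analysis of microarrays. With 7.61% of all probes called in limma, a count of 0 in a list this short is near the background. It says nothing particular of these cells. At an unadjusted p under 0.05, 1 endothelial marker was higher, and 2 fibroblast markers and 1 cardiomyocyte marker were lower. Egfl7, the brightest endothelial marker, had mean log2 levels of 14.84 (MI) and 14.98 (sham), and Dcn, the brightest fibroblast marker, had 15.96 and 16.33. On the scale used here, 7 of the 8 fibroblast markers had lower means in MI mice, with a median difference of -0.41 beside 0.12 over all retained probes, and Col3a1, a collagen chain, had the lowest value (-0.75, adjusted p = 0.127 in limma). Msln, the brightest mesothelial marker, had 11.33 and 10.94. Of 7 markers of smooth muscle and pericytes, 1 was called, beside 7.61% of all probes: Acta2, smooth muscle actin, rose by 1.46.

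Among 10 markers of monocytes and macrophages tested, 2 were called higher, Ccr2, the receptor of inflammatory monocytes (1.15), and Chil3 (2.79). Over all probes 6.3% were called higher. The tissue macrophage genes Mrc1 and Lyve1 differed by 0.20 and 0.17 and were not called. Significance analysis of microarrays also called Fcgr1, an Fc receptor (0.67, q = 0.0426), which limma did not (adjusted p = 0.0757). Of 4 B cell markers tested, 1 was called, beside 7.61% of all probes: Cd79b, a chain of the B cell receptor (0.73). Pax5 was not well above background on any array.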
